A study of Mus musculus with 8 samples.

Results

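The respiratory chain genes described here are subunits of the 5 protein complexes that carry out oxidative phosphorylation, in leukaemia cells from mice. They were taken by name: symbols that begin with mt-Nd, mt-Co, mt-Cy, mt-Atp, Nduf, Uqcr or Atp5, the 4 genes Sdha to Sdhd, and symbols that begin with Cox4 to Cox8, with pseudogene names (-ps) left out. The names took 100 of the 18860 genes in the deposited tables. Of these, 13 are encoded in mitochondrial DNA (mtDNA) and 79 are nuclear genes for subunits, with 36 in complex I, 4 in complex II, 8 in complex III, 16 in complex IV and 15 in complex V. The names also took 4 complex I assembly factors (Ndufaf1 to Ndufaf4) and 4 genes that are not subunits, namely the supercomplex factor Cox7a2l, the Cox4i1 neighbour Cox4nb, Atp5s and Atp5sl, which were kept apart from the subunits.

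The cells came from the marrow of moribund C57BL/6 mice and are labelled acute myeloid cells. The first genotype, 11B3fl/p53fl;shNf1;shMll3;Vav1-Cre, carries 1 conditional deletion of chromosome band 11B3, the segment around Trp53, opposite a conditional Trp53 allele, and is called 11B3-deleted here. The second, p53fl/fl;shNf1;shMll3;Vav1-Cre, loses Trp53 alone on both copies and is called p53-loss-only. Both genotypes carry hairpins against the Ras regulator Nf1 and the histone methyltransferase gene Mll3, and Vav1-Cre, which drives recombination in blood cells, so no group without these changes was compared. Each genotype has 4 libraries, which the labels call lines without saying whether each came from its own mouse, so the p-values below measure only the spread between these libraries. None of the members lies in the gene order between Sco1 and Alox12, the ends of the deleted segment, although 4 (Atp5g1, Atp5h, Uqcr10 and Uqcrq) are elsewhere on chromosome 11.

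Complex I, complex III and complex IV pass electrons from NADH to oxygen and pump protons across the inner mitochondrial membrane, complex II feeds in electrons from succinate, and complex V uses the proton gradient to make ATP. Complex I, complex III, complex IV and complex V are each built from subunits of both genomes, whereas complex II is wholly nuclear. The mitochondrial mRNAs are cut out of long transcripts that cover whole strands of mtDNA, and their levels are then set after transcription, largely by RNA stability. The nuclear subunit genes are transcribed from promoters on many chromosomes.

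The libraries held 30502718 to 35719495 reads. The deposited value of a gene is its read count divided by a size factor of the library, plus 1, and is called normalised reads here; 3 reads give a value between 3.66 and 4.29. Markers of the labelled cell type were present in every library, with Mpo, a granule enzyme of myeloid precursors, at 75329 to 414041 normalised reads. Single libraries stood apart in other ways: p53-loss-only replicate 4 in mitochondrial rRNA, 11B3-deleted replicate 1 in erythroid markers and 11B3-deleted replicate 3 in B cell markers. Their values are given beside the results they move with. Where values are given by library, they stand in the order of replicates 1 to 4. Trp53 was listed at 189 to 393 in 11B3-deleted and 300.2 to 577 in p53-loss-only libraries. These ranges overlapped, and the row covers the whole gene, so it does not check which exons remain.

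Whether a read can be assigned to a mitochondrial mRNA depends on nuclear copies of mtDNA, so the copies are shown first. In GENCODE M21 transcripts, the mt-Co2 mRNA and the annotated pseudogene Gm28661 on chromosome 1 were identical over 681 of 681 aligned bases. Bases 281 to 400 of the mRNA are shown with the same stretch of the copy, and no base is in capitals because none differs.
mt-Co2: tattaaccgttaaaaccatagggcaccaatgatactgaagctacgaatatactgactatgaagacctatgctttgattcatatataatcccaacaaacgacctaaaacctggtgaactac
Gm28661: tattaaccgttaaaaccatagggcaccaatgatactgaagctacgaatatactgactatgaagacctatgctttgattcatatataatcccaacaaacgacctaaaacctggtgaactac
The mt-Nd2 mRNA and its copy Gm13339 on chromosome 2 were 96.7% identical over 510 aligned bases, and in bases 724 to 843 the 6 bases that differ are in capitals.
mt-Nd2: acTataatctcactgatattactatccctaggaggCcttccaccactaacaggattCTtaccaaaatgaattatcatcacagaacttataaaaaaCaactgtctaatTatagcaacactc
Gm13339: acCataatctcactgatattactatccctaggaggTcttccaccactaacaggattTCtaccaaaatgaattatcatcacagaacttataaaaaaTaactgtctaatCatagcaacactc
Every 50-base window of the first stretch therefore occurs in both transcripts.

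Copies of this kind covered a run of adjacent mitochondrial genes. As the share of all 50-base windows of an mRNA that also occur in an annotated transcript of another gene, the copied part came to 100% for mt-Co2, 99.9% for mt-Co3, 99.5% for mt-Atp6, 98.8% for mt-Nd4l and 98.0% for mt-Nd3. It was 62.2% for mt-Nd4 and 51.1% for mt-Co1, then 8.19% for mt-Nd2 and 7.61% for mt-Nd5. No window of mt-Nd1, mt-Nd6, mt-Cytb or mt-Atp8 was shared. The copies on chromosome 1 (Gm28439, Gm10222, Gm28438, Gm28437, Gm10925, Gm28661 and Gm29216) are 7 consecutive annotated genes that match mt-Nd4 back to mt-Co1 in reverse mtDNA order. Sequence between annotated genes was not searched, and annotated copies without an identical run of 50 bases would not be found.

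The levels fell into 2 sets that match the copied run only in part. Per kilobase of transcript and averaged over the 8 libraries, 7 mRNAs were listed between 29310 and 200200 normalised reads, in the order mt-Co1, mt-Cytb (88380), mt-Nd1 (86170), mt-Nd2, mt-Nd5, mt-Nd6 and mt-Nd4 (29310). The other 6, which lie side by side from mt-Co2 to mt-Nd4l, were listed between 26.9 and 175 per kilobase, so that the lowest of the first group stood 168-fold above the highest of the second. All 6 together took 0.0452% to 0.0645% of the reads in mitochondrial mRNAs. The ends of the copied run, mt-Co1 (51.1% shared) and mt-Nd4 (62.2%), were in the high set. Of the 6 low mRNAs, mt-Atp8, which makes a small complex V subunit, was low with no shared window found, and it overlaps mt-Atp6 on mtDNA. The treatment of reads with several matches in the counting is not stated in the labels used here, so the values of mt-Co2, mt-Atp8, mt-Atp6, mt-Co3, mt-Nd3 and mt-Nd4l, and in part those of mt-Co1 and mt-Nd4, are uncertain as levels of mitochondrial RNA. Of the copies that have rows of their own and were examined, Gm10925 was listed at 63.1 to 129 normalised reads, next to 81.1 to 194 for mt-Atp6. Gm10222 was listed at 2.0 to 7.4, next to 3.0 to 12.7 for mt-Nd4l. Gm13339 was listed at 2.9 to 17.0, next to 22937 to 68869 for mt-Nd2.

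**Figure D1:**
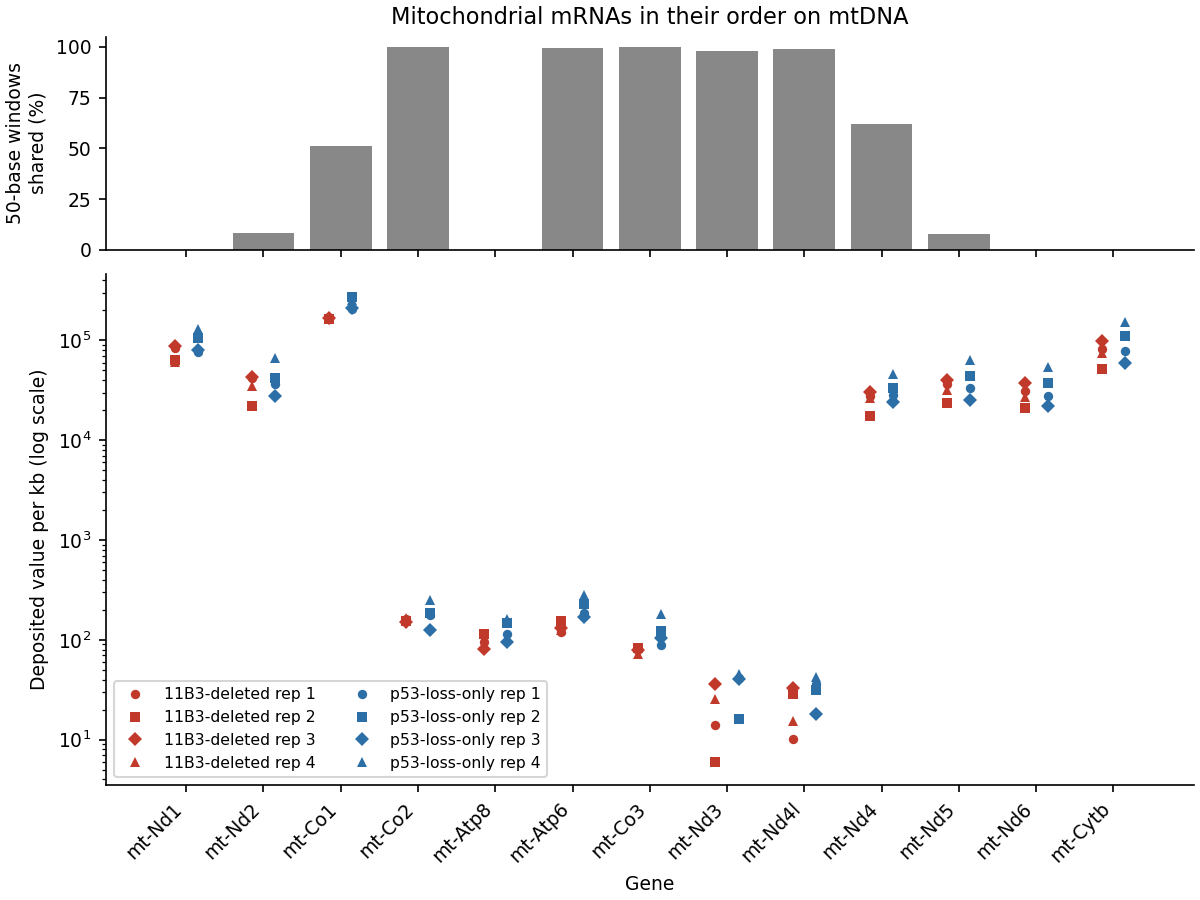
Upper bars give the share of 50-base windows of each mitochondrial mRNA that also occur in an annotated transcript of another gene (percent), and lower points give its normalised reads per kilobase in each of the 8 libraries (log scale), with genes in mtDNA order. The 6 adjacent genes from mt-Co2 to mt-Nd4l average 26.9 to 175 per kilobase and the other 7 average 29310 to 200200, with no library between the 2 sets.

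Across all genes, genotypes were compared on log2 normalised reads by limma, fitted with a mean-variance trend, with Benjamini-Hochberg adjustment over the 14679 genes tested. Of the 100 members, 97 reached a value of 10 in 4 or more libraries and were tested. The 3 others were mt-Nd4l, the complex IV subunit Ndufa4l2 and the muscle isoform Cox6a2, and no member passed through 1 group alone. No member was called at an adjusted p of 0.05 by limma, edgeR or DESeq2, where those tools called 0.0136%, 0.00681% and 0.395% of all genes tested. At an unadjusted limma p of 0.05, 1 member was lower in 11B3-deleted libraries (mt-Atp6) and 0 were higher, against 2.38% and 1.18% of all genes tested. The adjusted limma p lay between 0.996 and 0.999 for every member tested, and so did the adjusted edgeR p.

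Mitochondrial-encoded mRNAs had a lower mean on the log2 scale in 11B3-deleted libraries for 12 of 12 tested, with a median log2 difference (11B3-deleted minus p53-loss-only) of -0.36 and a range of -0.997 to -0.18. Over all genes tested the median log2 difference was 0.01, with 7106 lower and 7573 higher. Groups did not overlap for 3 of the 12, all lower in 11B3-deleted libraries (mt-Co1, mt-Atp6 and mt-Co3), where 1.23% of all genes tested had groups that did not overlap in that direction. All 3 have 51.1% or more of their windows shared with other annotated genes. The groups overlapped for mt-Co2, mt-Nd3 and mt-Nd4, also in the copied run, and for each tested mRNA with 8.19% or less shared. The mitochondrial mRNAs share their precursor transcripts and their libraries, so these 12 are not separate observations of the genotype.

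The mt-Co1 mRNA, which encodes the catalytic core of complex IV, was listed at 253319, 252526, 259567 and 254063 normalised reads in the 11B3-deleted libraries against 317233, 421349, 323814 and 393091 in the p53-loss-only libraries. All 4 11B3-deleted libraries lay within a narrow band below the p53-loss-only libraries, which varied more (254900 ± 3195 against 363900 ± 51440, SD, n = 4 each). The log2 difference was -0.50 (SE 0.23, 95% interval -1.03 to 0.02, limma unadjusted p = 0.0592), and the adjusted DESeq2 p was 0.101. With 51.1% of its windows shared, the level of mt-Co1 is uncertain in part.

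The mt-Atp6 mRNA, which encodes the proton channel subunit of complex V, was listed at 81.1, 106, 89.2 and 85.3 in the 11B3-deleted libraries against 125, 155, 116 and 194 in the p53-loss-only libraries. The groups did not overlap, p53-loss-only replicate 4 was highest, and with 99.5% of its windows copied the row may hold reads of the copies. Its log2 difference was -0.68 (SE 0.29, limma unadjusted p = 0.0427) and its adjusted DESeq2 p was 0.429. The complex IV core subunit mt-Co3 was listed at 63.5, 65.6, 62.1 and 56.9 against 69.9, 95.5, 82.1 and 144, a log2 difference of -0.61 (SE 0.32, limma unadjusted p = 0.093), again with p53-loss-only replicate 4 highest.

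The complex I subunit mt-Nd1, with no shared window found, was listed at 79922, 61237, 84855 and 58644 in the 11B3-deleted libraries against 73487, 100571, 77193 and 123821 in the p53-loss-only libraries. Here the groups overlapped, since 11B3-deleted replicates 1 and 3 lay above p53-loss-only replicates 1 and 3. The log2 difference was -0.38 (SE 0.24, limma unadjusted p = 0.142). The remaining complex I mRNAs had log2 differences of -0.25 (mt-Nd2), -0.37 (mt-Nd4), -0.28 (mt-Nd5) and -0.23 (mt-Nd6), and mt-Cytb, the mitochondrial subunit of complex III, had -0.32, all with overlapping groups. Without p53-loss-only replicate 4 the log2 differences were -0.02 for mt-Nd2, -0.20 for mt-Nd4, -0.05 for mt-Nd5, 0.01 for mt-Nd6, -0.09 for mt-Cytb and -0.24 for mt-Nd1. Without the same library mt-Co1 had -0.46, mt-Atp6 had -0.54 and mt-Co3 had -0.40. The mt-Nd6 gene is the one member read from the opposite mtDNA strand, and without knowing whether counting used strand its reads cannot be told apart from antisense RNA.

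Of the low rows, mt-Nd3 had the most negative log2 difference of all members tested (-0.997, SE 0.64), from values of 2.1 to 12.6 against 5.6 to 15.9. At so few reads it was not distinguishable from no difference. The values were -0.18 for mt-Co2 and -0.34 for mt-Atp8, and -0.02 and -0.23 without p53-loss-only replicate 4. Split by copies, the 8 mRNAs with under 90% of windows shared had a difference of class medians of -0.33 and the 4 tested with more had -0.56. The 8 include mt-Co1 (51.1% shared) and mt-Nd4 (62.2%), so this split does not set all copied rows apart.

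The library medians show which libraries weighed most on the mitochondrial difference. Each gene's log2 value was taken relative to its mean over the 8 libraries, and the median over tested members was formed in each library. For mitochondrial mRNAs these medians were -0.04, -0.47, 0.09 and -0.17 in the 11B3-deleted libraries against -0.01, 0.31, -0.24 and 0.79 in the p53-loss-only libraries. The groups overlapped, with p53-loss-only replicate 4 highest and 11B3-deleted replicate 2 lowest of the 8. The mean difference of -0.36 became -0.14 without p53-loss-only replicate 4 and -0.25 without 11B3-deleted replicate 2. All 6 of the high mRNAs other than mt-Co1 were highest in p53-loss-only replicate 4, and 5 of the 6 were lowest in 11B3-deleted replicate 2.

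The mitochondrial rRNAs also set p53-loss-only replicate 4 apart. The large rRNA mt-Rnr2 was listed at 79466 normalised reads there and at 11398 to 13291 in the other p53-loss-only libraries, and the small rRNA mt-Rnr1 at 45801 against 9717 to 10831. In the 11B3-deleted libraries mt-Rnr2 ranged from 8130 to 11949. The ratio of mt-Rnr2 to mt-Co1 reads was 0.202 in p53-loss-only replicate 4 and 0.0315 to 0.046 in the 7 others. The part of this rRNA signal in the mRNA values was not tested.

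Within the mitochondrial reads, the share of mt-Co1 varied between libraries. It took 42.6%, 53.3%, 40.8% and 46.9% of the mitochondrial mRNA reads in the 11B3-deleted libraries against 50%, 50.3%, 55.0% and 40.6% in the p53-loss-only libraries. The share thus did not separate the genotypes: it was lowest in p53-loss-only replicate 4 and 11B3-deleted replicate 3, where the other mRNAs were high. Like mt-Nd1 and mt-Cytb, mt-Co1 was highest in p53-loss-only replicates 2 and 4, but its highest library stood only 1.67 times above its lowest. The ratio of mt-Co1 to mt-Cytb reads ran from 2.26 in p53-loss-only replicate 4 to 4.78 in p53-loss-only replicate 3. For the 6 other high mRNAs the highest library stood 2.11 to 3 times above the lowest.

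Nuclear-encoded subunits had a higher mean in 11B3-deleted libraries for 59 of 77 tested and a lower one for 18, with a median log2 difference of 0.09. Under 4 other scalings 57 to 62 of the 77 were higher, and all 12 mitochondrial mRNAs stayed lower. Their library medians were 0.15, -0.12, 0.16 and -0.10 in the 11B3-deleted libraries against -0.12, -0.09, -0.16 and 0.21 in the p53-loss-only libraries. The groups overlapped from end to end, and the mean difference of 0.06 ran from 0.01 without 11B3-deleted replicate 3 to 0.13 without p53-loss-only replicate 4. By complex, the difference of class medians was 0.04 for complex I, 0.09 for complex II, 0.16 for complex III, 0.06 for complex IV and 0.11 for complex V. Each complex's groups overlapped, and the order among complexes is within the spread of the libraries.

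**Figure D2:**
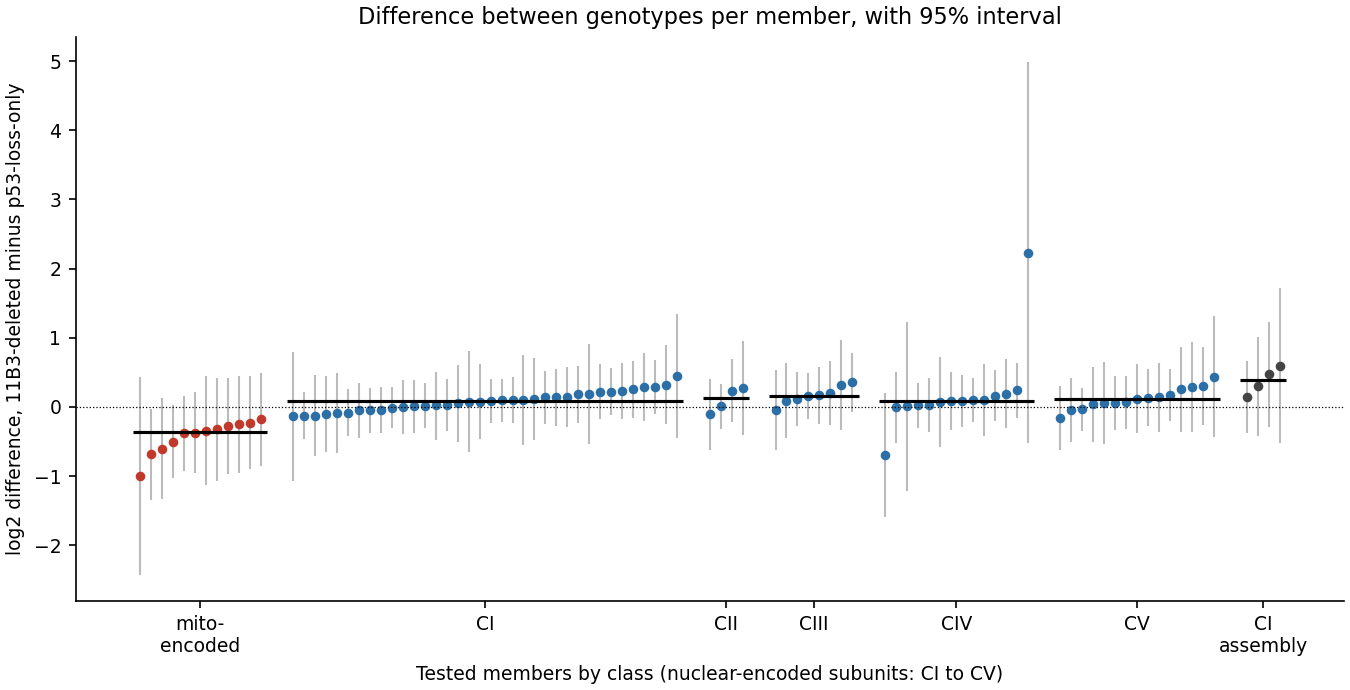
Points are log2 differences (11B3-deleted minus p53-loss-only) of the tested members of each class, sorted within the class, with limma 95% intervals as grey lines and class medians as black bars. The 12 mitochondrial-encoded points lie below 0, the nuclear points spread around 0, and the interval of 1 member (mt-Atp6) leaves out 0.

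Among the 36 nuclear complex I subunits, 25 had a higher and 11 a lower mean, and 1 had groups that did not overlap in the higher direction, where 0.913% of all genes tested did. This was the accessory subunit Ndufb3, at 1546, 1352, 1358 and 1678 in the 11B3-deleted libraries against 1342, 1209, 1307 and 1217 in the p53-loss-only libraries. The lowest 11B3-deleted value and the highest p53-loss-only value are close, and under scaling to equal sums over genes the groups of Ndufb3 overlapped. Its log2 difference was 0.22 (SE 0.15, limma unadjusted p = 0.171).

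Another accessory subunit, Ndufb8, had the smallest complex I p. It was listed at 4156, 3043, 2743 and 2671 against 2686, 2426, 2430 and 2621, a log2 difference of 0.29 (SE 0.17, limma unadjusted p = 0.123). The groups overlapped at 11B3-deleted replicate 4 and p53-loss-only replicate 1, and under each of the 4 other scalings (TMM, DESeq2 and equal sums over nuclear or over all genes) they did not overlap. Under both equal sums the accessory subunit Ndufs6 also had no overlap, and the complex IV subunit Cox7c had none under equal sums over all genes. The share of all genes without overlap was not counted under these scalings. Equal sums also raised the median log2 difference over all genes tested, from 0.012 to 0.027 (nuclear genes) and 0.037 (all genes). Without 11B3-deleted replicate 1 the difference of Ndufb8 was 0.15. The flavoprotein Ndufv1, where NADH is oxidised, had a log2 difference of 0.26 (SE 0.18), with 11B3-deleted replicate 1 highest at 3968 and the other 7 libraries between 2257 and 3053, and 0.11 without that library. Per kilobase the highest nuclear complex I subunit was Ndufb9, at 4597.

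Complex II had a higher mean for 3 of its 4 subunits. The flavoprotein Sdha, which oxidises succinate, was listed at 12027, 6276, 8604 and 7527 in the 11B3-deleted libraries against 7395, 6592, 7857 and 6646 in the p53-loss-only libraries. Only 11B3-deleted replicates 1 and 3 stood above the p53-loss-only range, and the log2 difference was 0.24 (SE 0.20, limma unadjusted p = 0.278). The membrane anchor Sdhd had 0.27 (SE 0.30) and the iron-sulphur subunit Sdhb had -0.10 (SE 0.23). Without 11B3-deleted replicate 1 the differences were 0.06 for Sdha and 0.04 for Sdhd. Sdhd was also the highest of the complex per kilobase, at 4125.

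Complex III had a higher mean for 7 of 8 subunits. The Rieske iron-sulphur protein Uqcrfs1 was listed at 4582, 4713, 3646 and 3066 in the 11B3-deleted libraries against 3221, 2989, 3668 and 2532 in the p53-loss-only libraries. The groups overlapped through 11B3-deleted replicates 3 and 4, and the limma log2 difference was 0.36 (SE 0.19, unadjusted p = 0.0911). The core protein Uqcrc1 had 0.32 (SE 0.29), with 11B3-deleted replicate 1 at 13542 and the others between 5492 and 8711. Without that library its difference was 0.05. Uqcrb had 0.16 (SE 0.15), in a row with 43.2% of its windows shared with other annotated genes.

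Complex IV had a higher mean for 12 of 14 tested. The marker Cox5a, an early-assembling nuclear subunit, was listed at 5033, 2822, 4237 and 3048 in the 11B3-deleted libraries against 2913, 2899, 3066 and 4163 in the p53-loss-only libraries. High values were those of 11B3-deleted replicates 1 and 3 and p53-loss-only replicate 4, and the log2 difference was 0.19 (SE 0.22, limma unadjusted p = 0.411), or 0.04 without 11B3-deleted replicate 1. Cox7c had 0.24 (SE 0.17), with 52.95% of its windows shared with other genes.

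The complex IV isoforms held both extremes among the nuclear subunits. Cox4i2, an alternative form of subunit 4 known from lung, was listed at 595.6 in 11B3-deleted replicate 1, at 12.5 to 22.3 in the other 3 11B3-deleted libraries and at 4.2 to 25.8 in the p53-loss-only libraries. The log2 difference of 2.23 (SE 1.22, limma unadjusted p = 0.0996) became 0.95 without that library, which also had the highest erythroid marker sum (225701 normalised reads, against 3118 to 61378 in the 7 others). The part of the erythroid signal in the Cox4i2 value was not tested.

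Cox6b2, known as the testis form of subunit 6B, was listed at 273, 435, 369 and 815 in the 11B3-deleted libraries against 763, 673, 1128 and 427 in the p53-loss-only libraries. The groups overlapped through 11B3-deleted replicate 4 and p53-loss-only replicate 4, and the log2 difference was -0.70 (SE 0.40, limma unadjusted p = 0.111).

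In each pair the widely expressed isoform was the higher one per kilobase. Averaged over 8 libraries and per kilobase, Cox4i1 was listed at 12030 and Cox4i2 at 118, Cox6a1 at 10070 and the muscle form Cox6a2 at 11.8, and Cox6b1 at 6711 and Cox6b2 at 1043. Cox7a2 was listed at 4661 and its muscle form Cox7a1 at 35.6, and Ndufa4 at 7019 and Ndufa4l2 at 7.93. Cox4i1 was the highest nuclear complex IV gene, followed by Cox8a at 10180. The log2 differences of the common forms were small, at 0.16 for Cox4i1 (SE 0.16), 0.00 for Cox6a1 (SE 0.23), 0.09 for Cox6b1 (SE 0.16), 0.03 for Cox7a2 (SE 0.17), 0.08 for Cox8a (SE 0.19) and 0.07 for Ndufa4 (SE 0.29). The 95% interval for Cox6a1, -0.52 to 0.51, shows the size of difference that 4 libraries a group leave possible.

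Complex V had a higher mean for 12 of 15 subunits. Its catalytic beta subunit Atp5b was the highest nuclear subunit per kilobase, at 16370, with a log2 difference of 0.29 (SE 0.29). The epsilon subunit Atp5e was listed at 3415, 1894, 3311 and 2266 against 1782, 2076, 1908 and 2996, with a log2 difference of 0.30 (SE 0.25, limma unadjusted p = 0.259) and overlapping groups. The ring-forming subunit c is encoded by 3 genes: Atp5g3 (6343 per kilobase) had 0.44 (SE 0.39), Atp5g1 (481) had 0.26 (SE 0.27) and Atp5g2 (1331) had -0.04 (SE 0.20). Without 11B3-deleted replicate 3, Atp5g3 had 0.22 and Atp5g1 had 0.12. The Atp5g2 row shares 87.4% of its windows with other annotated genes, so its level is uncertain.

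All 4 complex I assembly factors had a higher mean in 11B3-deleted libraries, with a median log2 difference of 0.38. Ndufaf1 was listed at 508, 171, 461 and 205 in the 11B3-deleted libraries against 133, 317, 121 and 308 in the p53-loss-only libraries. Its groups overlapped, with 11B3-deleted replicates 1 and 3 highest, at a log2 difference of 0.60 (SE 0.49, limma unadjusted p = 0.256). Ndufaf2 had 0.47 (SE 0.34) and Ndufaf4 had 0.30 (SE 0.31). Without 11B3-deleted replicate 1 the 3 differences were 0.35 for Ndufaf1, 0.28 for Ndufaf2 and 0.15 for Ndufaf4.

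Set within 1 library, mitochondrial and nuclear subunits can be compared without the library's scaling. The log2 ratio of mt-Co1 to Cox5a, both in complex IV, was 5.65, 6.48, 5.94 and 6.38 in the 11B3-deleted libraries against 6.77, 7.18, 6.72 and 6.56 in the p53-loss-only libraries. In linear terms mt-Co1 had 50.3 to 89.5 times the normalised reads of Cox5a in 11B3-deleted libraries and 94.4 to 145 times in p53-loss-only libraries, so the groups did not overlap. The difference of log2 means was -0.70 (6.11 ± 0.39 against 6.81 ± 0.27, SD, n = 4 each; exact two-sided permutation p = 0.0286, the smallest that 70 arrangements allow). It did not pass 0.05 without 11B3-deleted replicate 1 (-0.54, exact permutation p = 0.0571) or without any 1 of the p53-loss-only libraries (-0.78 to -0.57, exact permutation p = 0.0571 to 0.0857). The pair was chosen with earlier results of these data known, and this is 1 of many pairs that could have been formed. The ratio also carries the uncertainty of the mt-Co1 row, with 51.1% of its windows shared.

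Summed over genes, mitochondrial mRNAs took 1.85%, 1.44%, 2.14% and 1.71% of all reads in the 11B3-deleted libraries against 1.96%, 2.83%, 1.71% and 2.98% in the p53-loss-only libraries. The means were 1.78% ± 0.29 and 2.37% ± 0.63 (SD, n = 4 each) and the groups overlapped. Nuclear subunits took 0.93% ± 0.17 and 0.83% ± 0.12. With 1 library left out, the difference in share of -0.585 percentage points for mitochondrial mRNAs ran from -0.804 (without p53-loss-only replicate 3) to -0.382 (without p53-loss-only replicate 4). That of 0.096 for nuclear subunits ran from 0.0409 (without 11B3-deleted replicate 3) to 0.152 (without p53-loss-only replicate 4). The ratio of the 2 sums was 1.76, 1.84, 1.96 and 2.19 in the 11B3-deleted libraries against 2.65, 3.33, 2.33 and 2.99 in the p53-loss-only libraries, which did not overlap. No p is given for a sum over members. That separation rests on mt-Co1, the largest part of the mitochondrial sum and a row with 51.1% of its windows shared. Without it the ratios were 1.01, 0.86, 1.16 and 1.16 against 1.33, 1.65, 1.05 and 1.77, and p53-loss-only replicate 3 lay below 11B3-deleted replicates 3 and 4. Leaving out mt-Co1 also moved the difference in share from -0.59 to -0.25 percentage points. With each gene given equal weight, the mitochondrial median minus the nuclear median was -0.19, -0.35, -0.07 and -0.07 in the 11B3-deleted libraries against 0.11, 0.40, -0.08 and 0.59 in the p53-loss-only libraries. These values overlapped too, again through p53-loss-only replicate 3. In bulk RNA, fewer cells with a given RNA and less of that RNA per cell cannot be told apart.

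**Figure D3:**
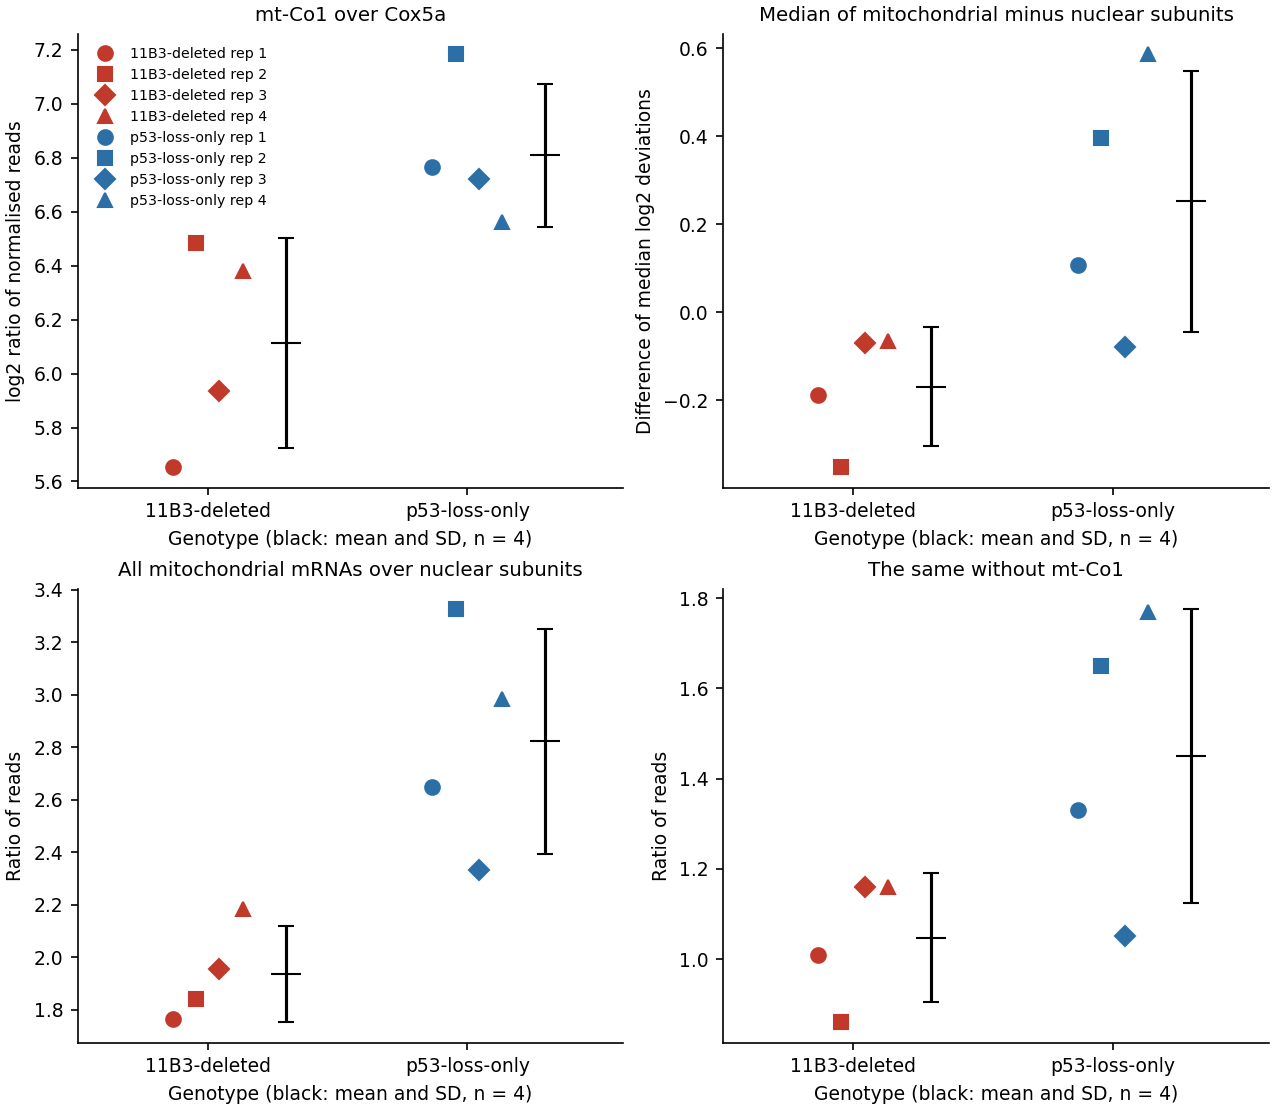
Clockwise from upper left, by genotype: the log2 ratio of mt-Co1 to Cox5a normalised reads, the mitochondrial minus the nuclear median log2 deviation, the ratio of mitochondrial mRNA to nuclear subunit reads without mt-Co1, and the same ratio with it. Points are libraries, black marks are mean and SD (n = 4), and no axis of a ratio starts at 0; the groups are apart in both left panels, which hold mt-Co1, and overlap in both right panels through p53-loss-only replicate 3.

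**Figure D4:**
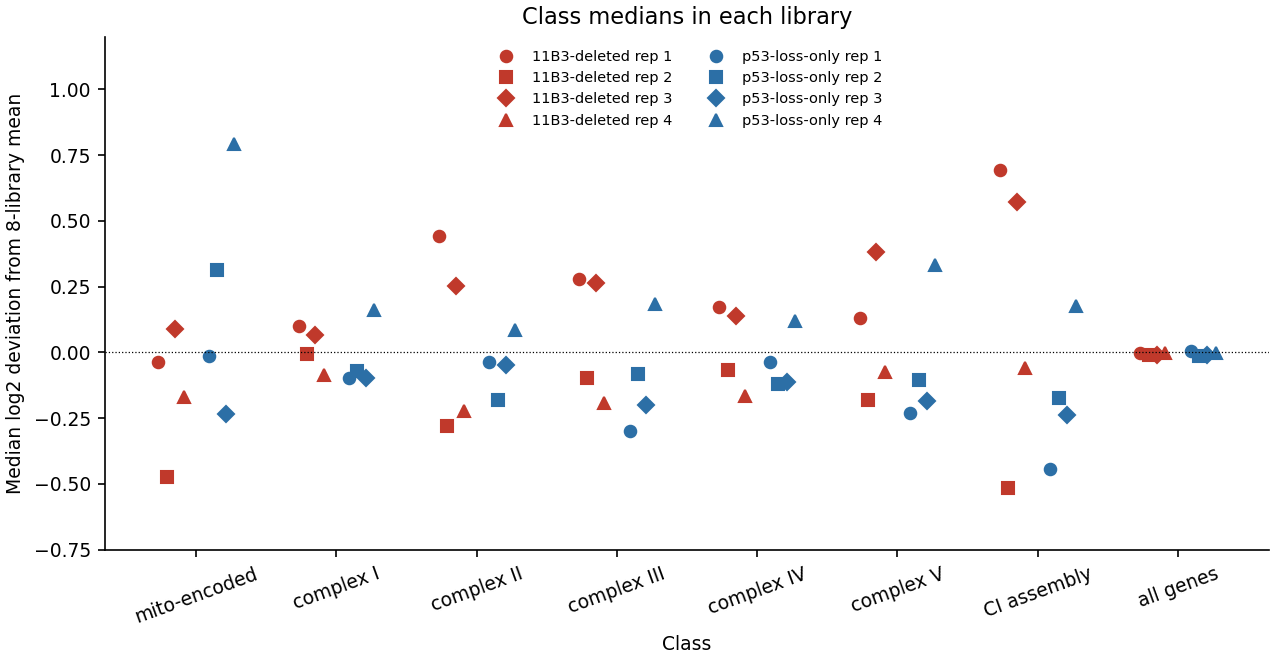
Each point is the median over the tested genes of a class, in 1 library, of the log2 deviation from the gene's mean over 8 libraries. The mitochondrial class runs from -0.47 to 0.79 and the medians of all genes tested stay near 0, while 11B3-deleted replicates 1 and 3 and p53-loss-only replicate 4 are the highest libraries in each nuclear subunit class.

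The nuclear subunits varied together along an axis that crosses the genotypes. Without Cox4i2, left out after its values were seen, the first principal component of the 76 other tested subunits held 60.9% of their variance, and 61 of them loaded with the same sign. Scores were 2.15, -1.70, 2.72 and -1.34 in the 11B3-deleted libraries against -1.88, -0.59, -2.13 and 2.77 in the p53-loss-only libraries. High scores were thus those of 11B3-deleted replicates 1 and 3 and p53-loss-only replicate 4. Atp5g3, the complex I subunits Ndufs5 and Ndufb2, and Sdhd had the strongest positive loadings, and Cox6b2, Ndufa8, Ndufb7 and the gamma subunit Atp5c1 the strongest negative ones. Of the 77 tested subunits, 25 were highest in p53-loss-only replicate 4, 22 in 11B3-deleted replicate 1 and 13 in 11B3-deleted replicate 3.

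Other genes, picked after their values were seen and not tested, are given beside these scores. The transcription factor Myc was listed at 12570, 2174, 10015 and 7131 in the 11B3-deleted libraries against 4537, 5355, 3970 and 6930 in the p53-loss-only libraries. Myc was highest in 11B3-deleted replicates 1 and 3, but in p53-loss-only replicate 4, which has the highest score, it was below 11B3-deleted replicate 4. The nuclear-retained RNA Neat1 was listed at 8839, 38849, 7854 and 24953 against 44617, 25909, 39862 and 12886, so that the 3 libraries with high subunit scores had the 3 lowest Neat1 values. The summed cell cycle list was highest in 11B3-deleted replicates 1 and 3 (160955 and 153861), and p53-loss-only replicate 4 (128512) was again below 11B3-deleted replicate 4 (138613). The erythroid sum was high in 11B3-deleted replicates 1 and 3 (225701 and 61378) but was 10675 in p53-loss-only replicate 4; all 16 erythroid markers had a row, and none was under 3 reads in every library. The B cell sum was 59543 in 11B3-deleted replicate 3 and 405 to 2201 elsewhere. The monocyte and macrophage sum was 33589, 25892, 23440 and 37552 in the 11B3-deleted libraries against 57451, 33302, 74855 and 22312 in the p53-loss-only libraries. This sum was highest in p53-loss-only replicates 3 and 1, which had the lowest subunit scores, and lowest in p53-loss-only replicate 4. The part of these genes and cell types in the subunit levels was not tested.

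**Figure D5:**
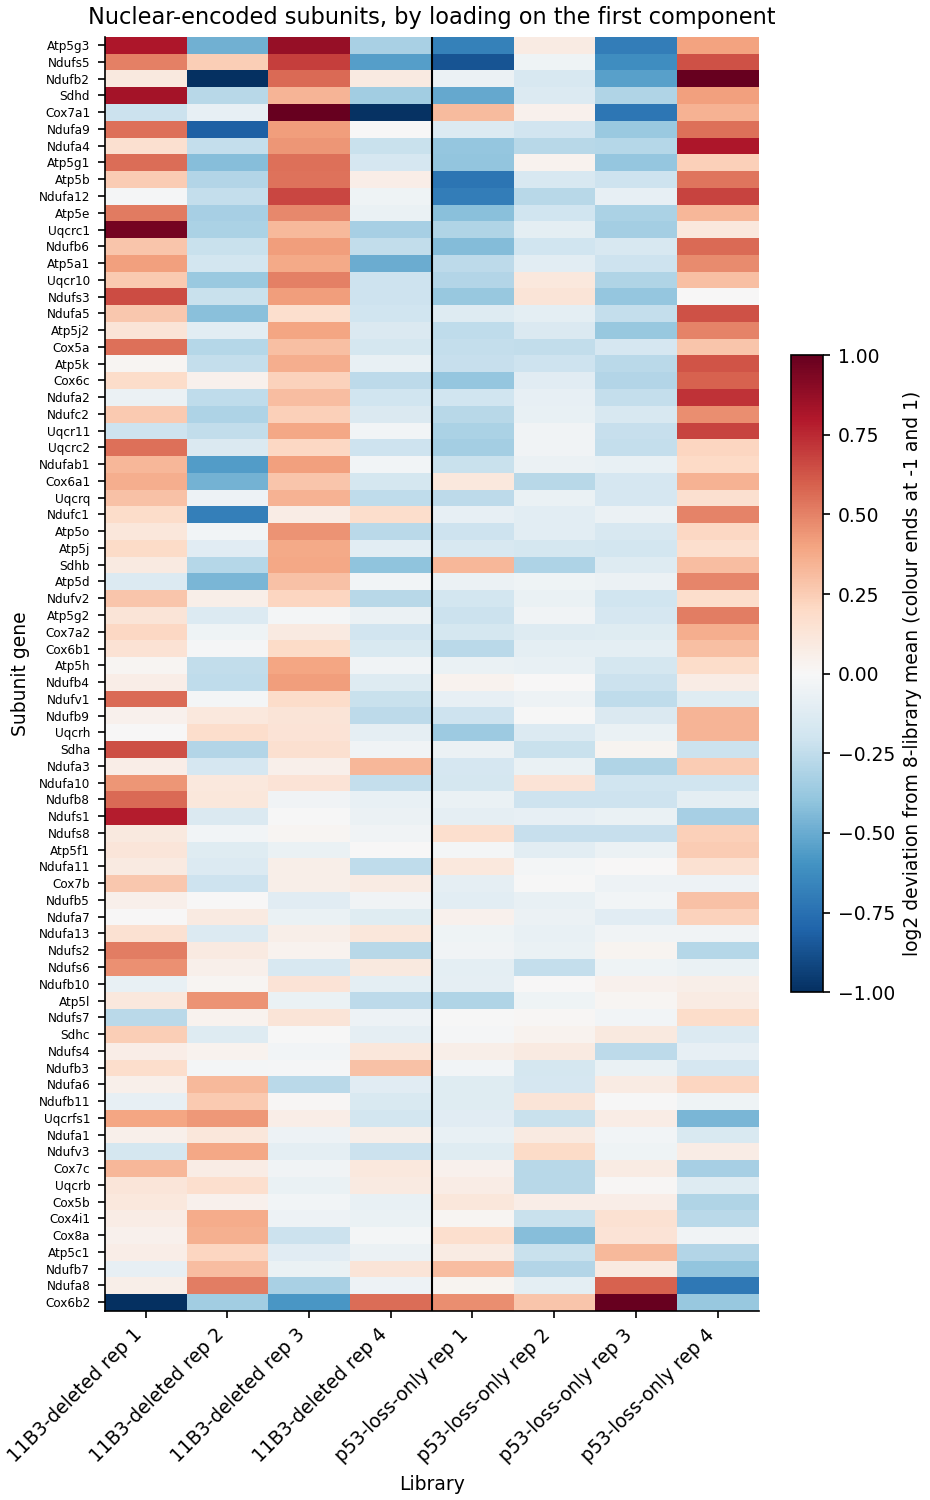
Rows are the 76 tested nuclear subunits other than Cox4i2, sorted by loading on the first component, columns are the 8 libraries with a black line between genotypes, and colour is the log2 deviation from the gene's mean. The upper rows are red in 11B3-deleted replicates 1 and 3 and p53-loss-only replicate 4 on both sides of the line.

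Promoters of the nuclear members were searched for letters of factors known to act on respiratory genes. RefSeq windows (GRCm38.p6, 250 bases before to 50 after the gene start) existed for 72 of the 87 nuclear members, of which 65 are subunit genes with 70 windows. The NRF1 motif, taken as the half-site GCGCA followed directly by its own reverse complement, occurred in 7.14% of subunit windows (5 of 70) and 0.971% of all 32851 windows. The ETS motif CCGGAAGT, on either strand, occurred in 7.14% and 3.89%, and TATAAA, on either strand, in 8.57% and 13.6%; none of the 3 motifs contains another. A match is a description of the letters and not of binding. All windows were used without matching for base composition, and a relation of the motifs to the principal component was not tested. The windows of Uqcrc1 and Ndufaf4 are shown as 2 examples with the NRF1 letters in capitals, a subunit and an assembly factor.
Uqcrc1, chr9:108936398-108936697, plus strand: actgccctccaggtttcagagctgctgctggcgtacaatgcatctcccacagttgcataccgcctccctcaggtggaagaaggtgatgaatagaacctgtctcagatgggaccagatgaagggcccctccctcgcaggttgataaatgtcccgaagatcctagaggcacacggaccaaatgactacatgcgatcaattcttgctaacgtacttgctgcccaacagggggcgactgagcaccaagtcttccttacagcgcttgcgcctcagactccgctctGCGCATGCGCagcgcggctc
Ndufaf4, chr4:24897833-24898132, plus strand: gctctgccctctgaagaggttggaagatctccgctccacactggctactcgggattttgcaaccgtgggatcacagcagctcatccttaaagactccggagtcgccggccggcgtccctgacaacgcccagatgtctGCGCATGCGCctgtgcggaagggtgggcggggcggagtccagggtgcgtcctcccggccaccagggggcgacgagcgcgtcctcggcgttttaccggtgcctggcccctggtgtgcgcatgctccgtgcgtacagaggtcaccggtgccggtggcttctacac

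Genes that serve the respiratory chain without being members were listed by function. No gene of any list was called by limma, edgeR or DESeq2. Mitochondrial ribosomal proteins had a lower mean for 14 and a higher mean for 62 of 76 tested (median log2 difference 0.16), and citric acid cycle enzymes for 2 and 16 of 18 (0.12). Over all genes tested, 7106 were lower and 7573 higher. Library medians of the ribosomal proteins were 0.399, -0.32, 0.275 and -0.133 in 11B3-deleted against -0.206, -0.13, -0.23 and 0.246 in p53-loss-only libraries. Those of the citric acid cycle were 0.603, -0.319, 0.261 and -0.168 against -0.254, -0.094, -0.149 and 0.252. In both lists the groups overlapped, with 11B3-deleted replicates 1 and 3 and p53-loss-only replicate 4 highest. Genes of a list share their libraries, so the counts of lower and higher means are not separate observations of the genotype. Mitochondrial RNA processing factors had a lower mean for 3 and a higher mean for 16 of 19 (0.20), and mtDNA transcription and upkeep for 7 and 13 of 20 (0.09), in which the mtDNA packaging factor Tfam was listed at 1147 to 1718 against 1210 to 1640. The library medians of the RNA processing factors also overlapped between groups, with 11B3-deleted replicates 1 and 3 highest. Cytochrome c and Cyc1 with the complex III and complex IV assembly factors had 10 lower and 18 higher of 28 (0.03). Assembly factors and other proteins of complexes I, II and V outside the name rule had 4 and 12 of 16 (0.16). Nuclear regulators had 5 and 7 of 12 (0.11). Cyc1 (complex III) and Usmg5 (complex V) are subunits that the name rule does not take. At an unadjusted limma p of 0.05 the 189 genes tested in these lists held 2 lower (Sco1 and Mrpl33) and 1 higher (the dehydrogenase subunit Dld). These are 1.06% and 0.529%, under the shares of 2.38% and 1.18% over all genes tested. Groups did not overlap for 3 lower (Sco1, Mrpl33 and the complex II assembly factor Sdhaf1) and 3 higher (the regulator Hcfc1, the pyruvate dehydrogenase subunit Pdha1 and the mitochondrial ribosomal protein Mrps31). That is 1.59% in each direction, near the 1.23% lower and 0.913% higher over all genes tested.

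Sco1, which delivers copper to complex IV, is the gene at one end of the deleted segment. It was listed at 431, 315, 567 and 289 in the 11B3-deleted libraries against 636, 639, 625 and 834 in the p53-loss-only libraries. The groups did not overlap, and the log2 difference was -0.81 (SE 0.26, limma unadjusted p = 0.0123, adjusted p = 0.996). The mitochondrial ribosomal protein Mrpl33 was listed at 4605 to 7301 against 7897 to 9434, with a log2 difference of -0.51 (limma unadjusted p = 0.0148).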

How the data were processed

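The authors sequenced total RNA of 4 leukaemia samples of each genotype. STAR, HTSeq, DESeq and mm9 are named in the submitters' processing notes, without roles or versions. Each deposited table holds 1 signal value per gene, and the deposited signal is reads over a size factor with 1 added, as its steps show: 100% of values came out as whole reads within 0.02. The labels used here do not state strand use or how reads with several matches were treated.

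Groups came from the sample titles. The test was limma with a mean-variance trend on log2 of the deposited value, for genes of at least 10 in at least 4 libraries, with group alone in the model, two-sided, adjusted over all genes. The 1 already in the values served as pseudocount, so folds of low genes are understated. edgeR (quasi-likelihood, TMM) and DESeq2 on recovered reads, 2 equal-sum scalings, other filters, a constant of 5, a replicate block and leaving out each library were alternatives. No 2 libraries agreed within sampling noise. The fits were also run on simulated counts, but the size of difference they could detect is not given here. The tools were DESeq2 1.42.0, edgeR 4.0.16 and limma 3.58.1 in R 4.3.3.

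Gene names, neighbours, transcript lengths (APPRIS principal transcript) and copies came from GENCODE M21, which matched 100 of 100 members but is of GRCm38, so no coordinates of it are printed. Some principal transcripts have long ends that lower their per-kilobase value.

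Members and lists were chosen with earlier results of these data known. Named genes are mt-Co1, Cox5a and all mitochondrial mRNAs, with values by library for the 4 of smallest p, the 3 of smallest p in each nuclear class, the 3 largest rises and falls, isoform sets, the highest per length in each class, up to 3 per pathway list by p, and Trp53. Myc, Neat1, Tfam, the rRNAs, the rows of Gm10925, Gm10222 and Gm13339, Ndufs6, list genes without overlap beyond the rule, and loadings on the principal component were named after their values were seen. Cox8b was not analysed here.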

Additional observations from a re-analysis of the deposited data

Results flagged for a closer look

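In 120 groups of 4 values (the named members, other described genes and class medians, per genotype), 9 had 1 library farther from the other 3 than Dixon's 95% limit allows, and chance alone gives about 1 in 20. In p53-loss-only replicate 4, Cox5a was 4162.6 normalised reads with the other 3 libraries at 2899 to 3066, Atp5j was 4510.8 (3527 to 3580), Cox7a2 was 3923.0 (2693 to 2796) and Ndufa4 was 7191.2 (3144 to 3380). The same library had 45801.2 for mt-Rnr1 (9717 to 10831) and 79465.8 for mt-Rnr2 (11398 to 13291), and its median deviation of nuclear complex I subunits was 0.1632 on the log2 scale (-0.098 to -0.069). Cox4i2 was 595.6 in 11B3-deleted replicate 1 with the others at 12.5 to 22.3. The low row mt-Nd3 was 5.6 in p53-loss-only replicate 2 with the others at 14.2 to 15.9. These are values only, and their causes were not tested.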

How the results depend on the processing

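No member was called under any alternative that was run. Over all genes, 2 were called in the main analysis, 1 by edgeR, 58 by DESeq2, 1 with a constant of 5, 0 with the replicate block and 0 to 1 when a library was left out. The cause of these changes was not tested, except that a left-out library and a block leave fewer degrees of freedom. The mitochondrial class median difference stayed negative, at -0.371 to -0.326 under other scalings, constants and filters and -0.486 to -0.138 with 1 library left out. The log2 ratio of mt-Co1 to Cox5a was -0.818 to -0.541 with 1 library left out, and -0.695 under the replicate block, where 4 pairs allow no exact permutation p under 0.125. Same-numbered libraries correlated at -0.414 to -0.03, and 0 of 8 correlated best with their own number, so the numbers were not treated as pairs.

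Differences near 0 changed sign. Cox6a1 (-0.004) became 0.004 with edgeR, 0.016 with DESeq2, 0.011 with equal sums over nuclear genes, 0.021 with equal sums over all genes and -0.126 to 0.152 with 1 library left out. Ndufa4 and Ndufb9 became -0.002 and -0.008 with edgeR, and with 1 library left out they ran from -0.066 to 0.352 and from -0.058 to 0.126. Leaving out 1 library gave -0.435 to 0.007 for mt-Nd6, -0.250 to 0.012 for Sdhb, -0.427 to 0.339 for Cox7a1, -0.032 to 0.159 for Cox7a2, -0.049 to 0.166 for Cox8a, -0.123 to 0.120 for Atp5g2 and -0.281 to 0.052 for Cox7a2l. It also changed the sign for complex II (-0.015 to 0.205), complex IV (-0.006 to 0.120) and complex V (-0.012 to 0.244). For single genes, 665 of the values under alternatives kept their direction and 31 reversed. Leaving out copied members and leaving mt-Co1 out of the sum and of the ratio of sums were added after seeing the data. Depth limits mt-Nd3, mt-Nd4l, mt-Atp8, Cox7a1, Cox6a2 and Ndufa4l2, whose rows hold few reads.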
